A study of Mus musculus with 16 samples.

Results

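Keratins and vimentin build the cytoplasmic intermediate filaments of liver cells, and their messenger RNA was followed here in oval cells, the hepatic progenitors of the mouse, that carried or lacked Ptpn1. The set was fixed by gene symbol and holds 7 genes of the 55421 in the table: the type II keratins Krt7 and Krt8, the type I keratins Krt18, Krt19, Krt20 and Krt23, and the type III filament gene Vim. Of these 7, 6 passed the filter on low values, and Krt23 did not. Ptpn1 encodes the tyrosine phosphatase PTP1B. The 4 groups were Ptpn1+/+ cells (WT) as control, Ptpn1+/+ cells after 400 µM palmitic acid, a saturated fatty acid, for 8 h, Ptpn1-/- cells (KO) as control, and Ptpn1-/- cells after the same treatment, with 4 libraries in each and 16 in all. Palmitic acid was given in DMEM with less serum than in growth and with added albumin, and it is not stated whether control cells had this medium. The protocol in the labels describes RNA of low starting quality, ribosomal RNA depletion and a short fragmentation. Not stated either are the means of removing Ptpn1, the number of lines per genotype, the mouse strain and whether replicates were separate cultures. Genotype and cell line therefore cannot be told apart, and p-values reflect only how far these libraries vary, which can be technical variation.

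A keratin filament forms from pairs of 1 type I and 1 type II chain, and a chain without a partner is degraded. KRT8 and KRT18 are the pair of simple epithelia and the keratin pair of hepatocytes, whereas KRT7 and KRT19 are added in bile duct cells and in the oval cells that arise near the ducts of injured liver. Vimentin assembles without keratins and is the filament of mesenchymal cells such as stellate cells and fibroblasts, and cultured epithelial cells often make it as well.

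The keratin genes lie in the 2 keratin clusters of the mouse genome (GRCm38 coordinates from GENCODE vM21). Krt7 (ENSMUSG00000023039.17) spans chr15:101411043-101430313 on the plus strand with 9 exons. Krt8 (ENSMUSG00000049382.10) spans chr15:101996698-102004482 on the minus strand with 9 exons, and Krt18 (ENSMUSG00000023043.7) spans chr15:102028180-102032027 on the plus strand with 7 exons. Krt8 and Krt18 are thus neighbours that point away from each other, 23697 bases apart, although Krt18 is a type I gene and the other type I members lie on chromosome 11. There, Krt20 (ENSMUSG00000035775.2) spans chr11:99428403-99438150 with 8 exons, Krt23 (ENSMUSG00000006777.7) spans chr11:99477974-99493137 with 8 exons, and Krt19 (ENSMUSG00000020911.14) spans chr11:100140810-100148665 with 6 exons, all on the minus strand; Krt20 and Krt23 are 39823 bases apart. Vim (ENSMUSG00000026728.9) spans chr2:13573927-13582826 on the plus strand with 9 exons.

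The sequence before the start of each gene was read from RefSeq (GRCm38.p6), which had an entry for 6 of the 7 genes; Krt19 had none. Krt8 and Krt18 moved together in the comparisons below, so their upstream stretches are shown, 5′ to 3′ on the strand of the gene. Each runs from 250 bases before the RefSeq start up to the first untranslated region (UTR) that GENCODE annotates for that gene. The Krt8 stretch lies within the span of Gm36026, a noncoding RNA gene on the other strand. Capitals mark CAGGTG or its complement CACCTG, the E-box that SNAIL repressors bind. The Krt8 stretch is chr15:102004483-102004592 (minus strand, 110 bases) and the Krt18 stretch is chr15:102027966-102028179 (plus strand, 214 bases).
Krt8: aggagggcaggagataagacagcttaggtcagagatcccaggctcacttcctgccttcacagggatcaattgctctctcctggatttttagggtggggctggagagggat
Krt18: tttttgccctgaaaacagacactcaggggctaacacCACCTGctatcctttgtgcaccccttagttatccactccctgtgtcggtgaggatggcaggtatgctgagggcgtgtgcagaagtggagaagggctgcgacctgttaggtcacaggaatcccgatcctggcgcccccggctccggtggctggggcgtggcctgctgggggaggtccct

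On both strands of the 250 bases before each RefSeq start, 5 motifs were searched. They were this E-box (CAGGTG), the core promoter element known as the TATA box (TATAAA), the box that the factor SP1 binds (GGGCGG), the box read by the factor NF-Y (CCAAT) and the site of the AP-1 dimer (TGANTCA). Matches of different motifs did not overlap. Among the windows that held the E-box were those of Krt7, Krt18 and Krt23; the Krt8 stretch above is only part of its window, and matches in the rest of that window are not reported here. The E-box was present in 17.2% of all 32851 RefSeq windows. A TATA box was present in the windows of Krt20 and Vim, and in 12.4% of all windows. These stretches of 30 bases carry the matches in capitals (E-box in Krt7 and Krt23, TATA box in Krt20 and Vim), at chr15:101412347-101412376 for Krt7, chr11:99493335-99493364 for Krt23, chr11:99438165-99438194 for Krt20 and chr2:13574267-13574296 for Vim.
Krt7: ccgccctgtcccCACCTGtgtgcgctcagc
Krt23: agatctgctaccCACCTGgtggcctgggcc
Krt20: tctcttgaactcTATAAAaggtcatctcca
Vim: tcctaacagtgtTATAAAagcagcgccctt
The E-box began 44 bases before the RefSeq start in Krt7, 214 in Krt18 and 232 in Krt23. By GENCODE, the Krt7 match lies in an exon of another Krt7 transcript, while those of Krt18 and Krt23 lie in no exon. The TATA box began 29 bases before the RefSeq start in Krt20, in no exon, and 32 bases before it in Vim, where GENCODE annotates 5′ UTR of transcripts that start earlier. The Krt7 window also held 4 SP1 boxes (32.7% of all windows hold at least 1) and the Vim window 2 CCAAT boxes (33.8% of all windows), and an AP-1 site, present in 6.75% of all windows, was in none of the 6. These are matches of letters only.

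The values are normalized counts, the read counts of a library divided by its size factor. The libraries held 21553952 to 35693442 reads in genes, and the lowest correlation between libraries of 1 group was 0.9906. Ptpn1 itself averaged 1936.5 normalized counts in WT control and 1851.9 in WT palmitate libraries, against 329.5 and 293.4 in the corresponding KO libraries. KO libraries thus held 17.0% and 15.8% of the WT level, with no overlap (exact permutation test, two-sided, p = 0.0286 in each treatment, the smallest p that 4 against 4 libraries allow; adjusted over 4 comparisons 0.0286). Of the markers expected in oval cells, Sox9, Spp1 and Cd24a were expressed in every group, but the epithelial marker Epcam had 16 reads over all libraries and Cldn7 had none; of the 8 progenitor markers, 6 were tested and 5 were higher and 1 lower in KO control, with a summed level of 99865 to 109321 in WT control and 208365 to 215210 in KO control libraries. Most of that summed level was Spp1, which averaged 84275 in WT control and 184089 in KO control libraries. The counts of tested markers above and below stand beside 37.8% of all 15239 genes tested higher and 39.3% lower in KO control. Marker lists of other liver cell types moved with genotype. The summed level of 10 stellate cell and fibroblast markers ran from 144703 to 153923 in WT control libraries and from 2536 to 3540 in KO control libraries, with 7 of the 7 tested lower in KO and Lrat at 0 in every library. The summed level of 10 hepatocyte markers ran from 2454 to 2684 in WT control and from 46844 to 51015 in KO control, with 6 of the 7 tested higher in KO; Cyp2e1, Cps1 and Asgr1 were below the filter. Summed mesothelial markers ran from 7450.2 to 7787 and from 9901 to 10329 (4 of 5 tested, 1 higher and 3 lower). That sum was mostly Msln, the 1 higher, which averaged 5835.9 in WT control and 9705.4 in KO control. The 3 lower were Upk3b, Upk1b and Wt1. Leukocyte markers ran from 667 to 692 and from 744 to 803 (3 of 7 tested, 2 higher, Adgre1 and Tyrobp at 0). Their sum was mostly Csf1r, which averaged 583.0 in WT control and 655.9 in KO control. Csf1r was 1 of the 2 higher and lost its call when libraries were rescaled to the same total (0.09; limma, adjusted p = 0.149). Endothelial markers ran from 72.7 to 84.1 and from 18.1 to 35.4 (2 of 6 tested, 1 each way). The share of reads in ribosomal RNA genes was 0.052% to 0.054% in WT control, 0.058% to 0.062% in WT palmitate, 0.081% to 0.086% in KO control and 0.101% to 0.107% in KO palmitate libraries. The part of these shifts in the results that follow was not tested, and in bulk RNA a change in the number of cells of a type and a change in RNA per cell cannot be told apart.

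In control all 5 tested member keratins were higher in KO than in WT cells, by 1.26-fold for Krt7 up to 2.04-fold for Krt20, and Vim was lower at 0.636 of the WT level. The same split, 5 member keratins up and Vim down, was found after palmitate, although there Krt7 lost its call when libraries were rescaled to the same total and turned sign under quantile normalization. Those 6 of 6 calls are read against a large genotype difference: 77.1% of the 15239 genes tested were called in control (37.8% higher and 39.3% lower in KO) and 77.1% after palmitate (38.1% higher and 39.0% lower). These were 5759 genes higher and 5985 lower in control, and 5811 and 5944 after palmitate. When libraries were rescaled to the same total, they were 4993 and 6798 in control, and 4823 and 7034 after palmitate. The 4 tested keratins outside the set went opposite to the 5 member keratins. Of these 4, 3 were called lower in KO control and all 4 after palmitate, with limits given below. Palmitate changed 2 of the 6 genes in WT cells, both downward, where 37.6% of all genes were called (17.7% higher, 19.9% lower; 2702 and 3032 genes, or 3656 and 2265 when libraries were rescaled to the same total). In KO cells it changed 5 of the 6, with Krt7, Krt8, Krt18 and Vim lower and Krt19 higher, where 39.1% of all genes were called (18.7% higher, 20.4% lower; 2845 and 3115 genes, or 3274 and 2726 when rescaled to the same total). The response itself differed between genotypes for Krt7, Krt8, Krt18 and Krt19, 4 of 6 genes, with 3 of the differences negative; 9.9% of all genes were called in that test (4.19% higher, 5.71% lower; 638 and 870 genes, or 489 and 1141 when rescaled to the same total). Calls are at a limma adjusted p (Benjamini-Hochberg, over all genes) under 0.05, and fold changes are on the log2(value + 1) scale. The comparisons share their groups, so they are not independent of one another.

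**Figure D1:**
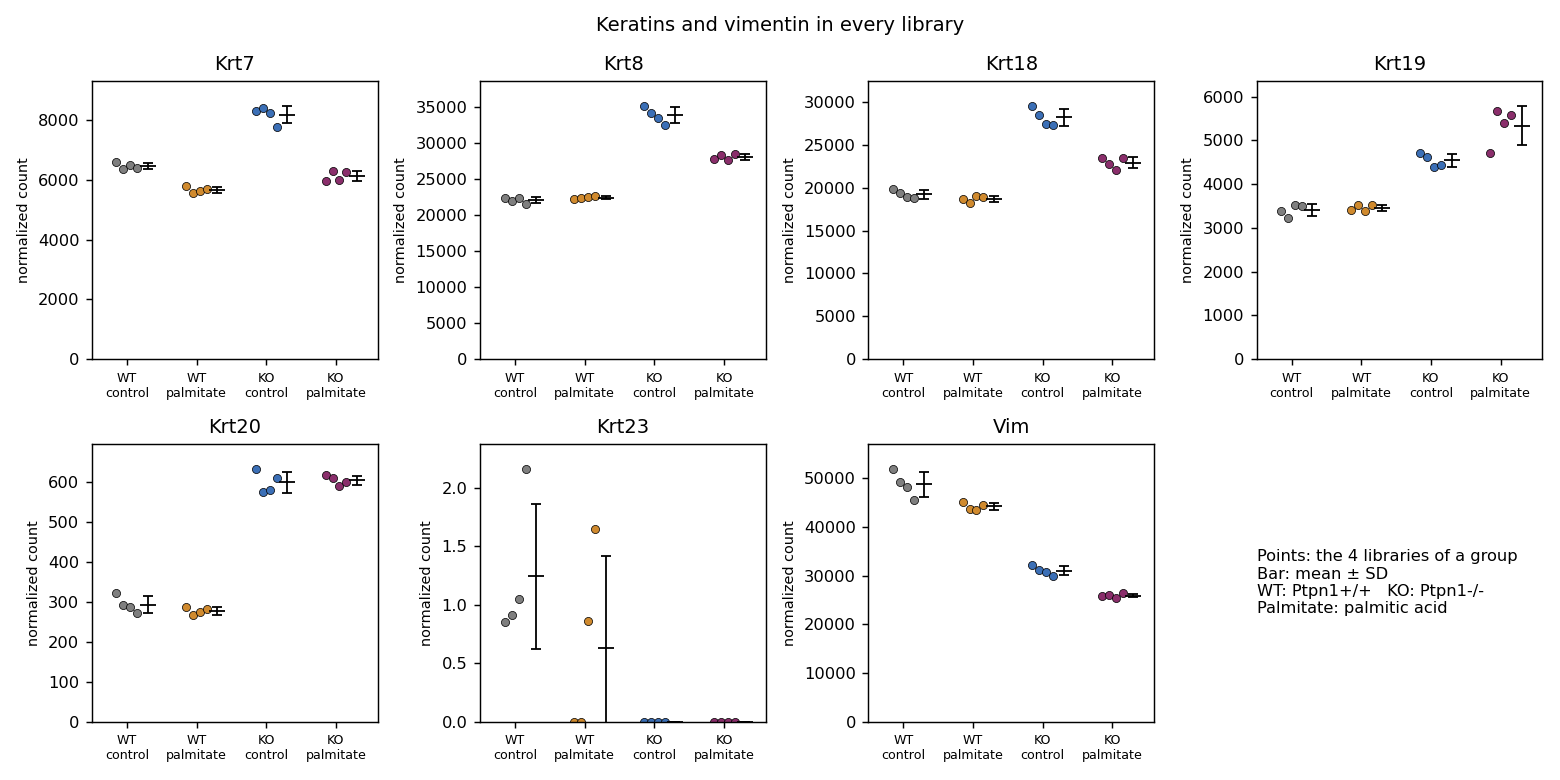
Normalized count (linear axis from 0, a separate scale in each panel) of the 7 genes in each of the 16 libraries; points are libraries, coloured by group, and the bar beside them is the mean ± SD (n = 4). Krt8, Krt18, Krt19 and Krt20 are higher in all KO than in all WT libraries, Vim is lower in all KO libraries, and Krt23 has no reads in the KO libraries.

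Krt8 was the keratin with the most reads. It stood at 22396, 21925, 22294 and 21472 normalized counts in the WT control libraries and at 22241, 22386, 22430.1 and 22637 in the WT palmitate libraries. In KO cells it stood at 35088, 34227, 33526 and 32521 in control and at 27841, 28327, 27607 and 28408 after palmitate. The WT groups overlapped, every KO library exceeded every WT library, and the KO palmitate libraries lay between the WT libraries and the KO controls. The group means were 22022 ± 419 (SD, n = 4), 22424 ± 163, 33840.4 ± 1087 and 28046 ± 385. Krt8 was higher in KO cells by 0.62 ± 0.025 (log2, SE; 1.54-fold) in control (limma, adjusted p = 4.85e-19) and by 0.32 ± 0.025 (a rise of 25.1%) after palmitate (limma, adjusted p = 1.71e-12). Palmitate lowered it in KO cells by 0.27 ± 0.025 on the log2 scale (a change of -17.1%; limma, adjusted p = 1.13e-09). In WT cells the change was 0.03 ± 0.025 and was not called in limma (adjusted p = 0.446), although it was called, at 0.07, when libraries were rescaled to the same total or quantile normalized (limma, adjusted p = 0.0123 and 0.0131). The responses of the 2 genotypes differed by -0.30 ± 0.035 (limma, adjusted p = 2.71e-06).

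Krt18, the type I partner of Krt8, followed the same course. Its levels were 19876, 19408, 18865 and 18816 normalized counts in WT control and 18739, 18236, 19021.5 and 18928 in WT palmitate libraries. KO control libraries held 29504, 28501, 27485 and 27375, and KO palmitate libraries held 23468, 22762, 22071 and 23452. As with Krt8, only the 2 WT groups overlapped. The means were 19241 ± 501 (SD, n = 4), 18731 ± 350.4, 28216 ± 997 and 22938 ± 666. The KO level was higher by 0.55 ± 0.028 (log2, SE; 1.47-fold) in control (limma, adjusted p = 1.37e-16) and by 0.29 ± 0.028 (1.22-fold) after palmitate (limma, adjusted p = 2.02e-10). Palmitate lowered Krt18 in KO cells by 0.30 ± 0.028 on the log2 scale (0.813-fold; limma, adjusted p = 1.88e-09). In WT cells its change of -0.04 ± 0.028 was not called (limma, adjusted p = 0.306), and its sign turned under rescaling to the same total (0.004) and under quantile normalization, where it was called as a rise of 0.07 (limma, adjusted p = 0.0346). The difference between the responses was -0.26 ± 0.04 (limma, adjusted p = 6.81e-05).

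Reads that Krt8 could share with other entries were few. The processed copy Krt8-ps held 0.202% to 0.606% as many reads as Krt8 in each library, and Gm36026, a noncoding RNA that overlaps the Krt8 start on the other strand, held 0.0229% to 0.11%. Whether counting used strand is not given in the sources used here, so reads of Krt8 and Gm36026 in their overlap cannot be told apart.

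Krt7, the type II keratin of bile ducts, was the only one of the 5 tested member keratins that palmitate lowered in both genotypes. WT control libraries held 6594, 6372, 6509 and 6386 normalized counts and WT palmitate libraries 5799, 5566, 5611 and 5699.8. KO control libraries held 8313, 8397, 8228 and 7757, and KO palmitate libraries 5963, 6285, 6009 and 6257. The 4 groups did not overlap, and the KO palmitate group lay below the WT control group. Means were 6465 ± 106 (SD, n = 4), 5669 ± 103, 8174 ± 286 and 6128 ± 166. Palmitate lowered Krt7 by 0.19 ± 0.028 on the log2 scale in WT (0.877-fold; limma, adjusted p = 4.05e-06) and by 0.41 ± 0.028 in KO cells (0.75-fold; limma, adjusted p = 2.47e-12), and the difference of -0.23 ± 0.04 between these responses was called (limma, adjusted p = 0.000363). Krt7 was higher in KO cells by 0.34 ± 0.028 (1.26-fold) in control (limma, adjusted p = 8.56e-12). After palmitate the KO excess was 0.11 ± 0.028 (1.08-fold; limma, adjusted p = 0.000691), a call that was lost at 0.01 after rescaling to the same total (limma, adjusted p = 0.667, with the median of all genes at -0.11) and whose sign turned to -0.05 under quantile normalization (limma, adjusted p = 0.101). The antisense gene Gm671, which overlaps Krt7, held 0.0675% to 0.237% as many reads.

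Krt19, the type I keratin of ducts and oval cells, moved against Krt7, Krt8 and Krt18 in palmitate-treated KO cells. WT control libraries held 3391, 3231, 3515 and 3489.9 normalized counts and WT palmitate libraries 3411, 3518, 3376 and 3523.5. KO control libraries held 4719, 4615, 4402 and 4443, and KO palmitate libraries 4703, 5681, 5400.05 and 5578. Every KO library exceeded every WT library, the 2 WT groups overlapped, and replicate 1 of KO palmitate fell within the range of the KO controls while the other 3 lay above it. The means were 3407 ± 129 (SD, n = 4), 3457 ± 74.9, 4545 ± 148 and 5341 ± 440.3. Krt19 was higher in KO cells by 0.42 ± 0.044 (log2, SE; 1.33-fold) in control (limma, adjusted p = 1.6e-08) and by 0.62 ± 0.044 (1.54-fold) after palmitate (limma, adjusted p = 1.67e-11). Palmitate raised it in KO cells by 0.23 ± 0.044 (1.17-fold; limma, adjusted p = 0.000256), and by 0.29 without replicate 1 of KO palmitate. In WT cells the change was 0.02 ± 0.044 (limma, adjusted p = 0.749). The responses differed by 0.21 ± 0.062 (limma, adjusted p = 0.0376), but this call was kept in only 10 of 26 alternatives, whose adjusted p ran from 9.66e-05 to 0.128. It was lost on leaving out any 1 of 12 libraries (replicates 1, 3 and 4 of WT control, 1 to 3 of WT palmitate, 2 to 4 of KO control and 2 to 4 of KO palmitate), with a difference of 0.18 to 0.22 and limma adjusted p of 0.0522 to 0.0789.

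Krt20, a type I keratin best known from intestinal and urothelial epithelium, had the largest KO to WT ratio of the 5 tested member keratins in both treatments. Its levels were 322, 292, 289 and 273 normalized counts in WT control and 287, 267, 274 and 283 in WT palmitate libraries. KO control libraries held 634, 576, 580.2 and 611, and KO palmitate libraries held 619, 611, 590.5 and 600.1. All KO libraries lay above all WT libraries, and within each genotype the control and palmitate libraries overlapped. Means were 294 ± 20.53 (SD, n = 4), 278 ± 9.16, 600.1 ± 27.1 and 605 ± 12.3. The KO level was higher by 1.03 ± 0.055 (log2, SE; 2.04-fold) in control (limma, adjusted p = 4.67e-16) and by 1.12 ± 0.055 (2.17-fold) after palmitate (limma, adjusted p = 6.68e-17). In this order 78.1% and 79.9% of all genes tested changed by less. For the other tested member keratins these shares were smaller, at 43.8% and 16.7% for Krt7 and 64.8% and 42.8% for Krt8. They were 60.9% and 39.4% for Krt18 and 51.1% and 65.0% for Krt19. The median absolute log2 change of all genes was 0.404 in control and 0.397 after palmitate. Palmitate gave -0.08 ± 0.055 in WT (limma, adjusted p = 0.293) and 0.01 ± 0.055 in KO cells (limma, adjusted p = 0.885), and the difference of 0.09 ± 0.078 between the responses was not called (limma, adjusted p = 0.536).

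Krt23, a type I keratin that is low in healthy liver, was close to undetected. WT control libraries held 1, 1, 1 and 2 reads and WT palmitate libraries 0, 0, 1 and 2, while the 8 KO libraries held none. A count of 0 in a group allows up to 3 reads over that group, so the 5 reads of WT control stood just above that limit and the 3 reads of WT palmitate did not. This limit covers counting error only. An exact two-sided permutation test of KO against WT control gave p = 0.0286, the smallest it can give, and 0.114 after adjustment over the 4 comparisons of this gene. The other 3 comparisons had exact permutation p of 0.429, 0.229 and 1. No change of Krt23 could be detected at this depth.

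Vim, the type III filament gene, was lower in KO cells in both treatments. It stood at 51876, 49266, 48229 and 45586 normalized counts in WT control and at 45144, 43703, 43562 and 44450.1 in WT palmitate libraries. KO control libraries held 32135, 31195, 30646 and 29958, and KO palmitate libraries held 25826, 25918, 25499 and 26399. The 4 groups did not overlap, in the order WT control, WT palmitate, KO control and KO palmitate, and WT control libraries spread the most. Means were 48739 ± 2603 (SD, n = 4), 44215 ± 732, 30983 ± 919.6 and 25911 ± 372. Vim was lower in KO cells by 0.65 ± 0.03 on the log2 scale (0.636-fold) in control (limma, adjusted p = 1.34e-17) and by 0.77 ± 0.03 (0.586-fold) after palmitate (limma, adjusted p = 2.67e-19). Palmitate lowered it by 0.14 ± 0.03 in WT (0.908-fold; limma, adjusted p = 0.000495) and by 0.26 ± 0.03 in KO cells (0.836-fold; limma, adjusted p = 8.76e-08). The difference of -0.12 ± 0.043 between these responses was not called (limma, adjusted p = 0.0768), but it was called without replicate 1 of WT control (-0.15, limma, adjusted p = 0.0136), without replicate 4 of KO control (-0.13, limma, adjusted p = 0.0462) and under 4 other alternatives. Stellate cells and fibroblasts make vimentin, and 7 of their 7 tested markers were lower in KO cells too. That held in control and after palmitate, beside 39.3% and 39.0% of all genes lower. The summed level of that marker list was 125643 to 130943 in WT palmitate and 2623 to 2821 in KO palmitate libraries. The part of these markers in the Vim result was not tested.

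**Figure D2:**
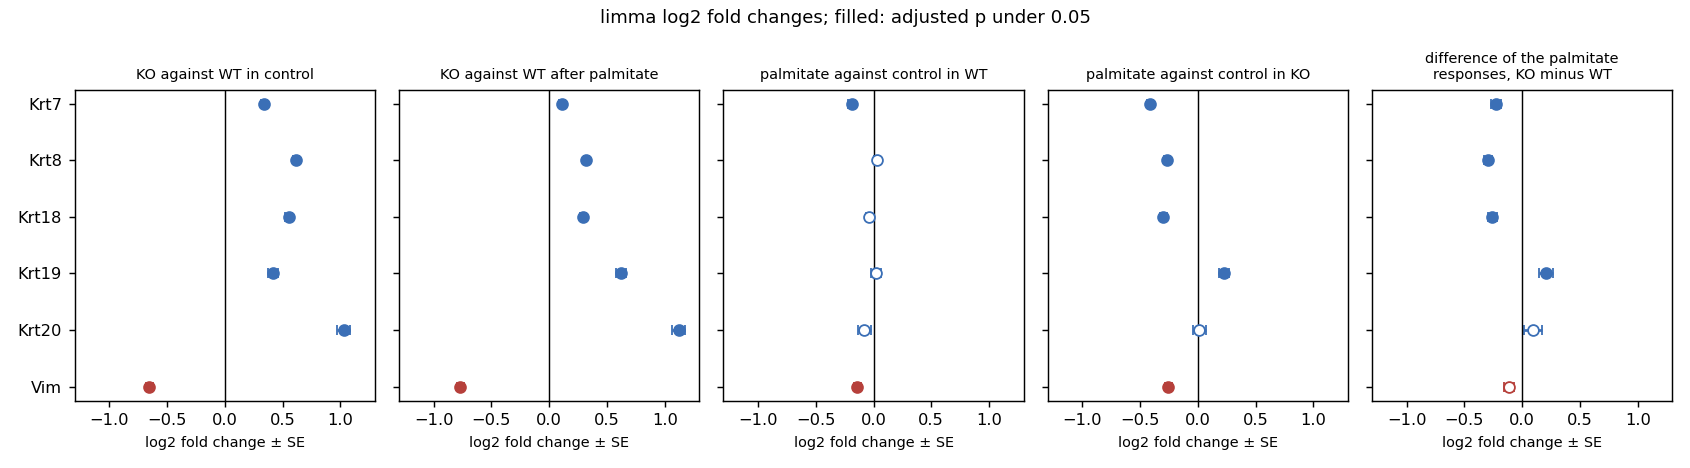
log2 fold change (horizontal axis, ± SE) of the 6 genes that passed the low-value filter, keratins in blue and Vim in red, in the 5 comparisons; filled points had a limma adjusted p under 0.05. Keratins lie right of 0 and Vim left of 0 in both genotype comparisons. In KO cells palmitate moved Krt7, Krt8, Krt18 and Vim to the left and Krt19 to the right. Under quantile normalization, which is not drawn, Krt7 in KO against WT after palmitate was -0.05.

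Levels of different genes were compared per kilobase of the longest GENCODE transcript. On that scale Vim held 22225 ± 1187 (SD, n = 4) normalized counts per kilobase in WT control and 14128 ± 419 in KO control libraries. Against the 6 keratins summed, its ratio was 0.779 ± 0.0284 (SD, n = 4) in WT control, 0.715 ± 0.0129 in WT palmitate, 0.336 ± 0.0018 in KO control and 0.333 ± 0.0021 in KO palmitate. The ratio ran from 0.701 to 0.81 over the WT libraries and from 0.331 to 0.338 over the KO libraries. In KO cells the ratio of the 2 treatments overlapped although both Vim and the summed keratins were lower after palmitate, and in WT cells every palmitate library lay below every control library. Per kilobase of coding sequence the 4 means were 0.919, 0.85, 0.4 and 0.399.

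Within the keratins, Krt8 and Krt18 made up most of the RNA in every group. Krt8 held 39.4%, 40.6%, 41.0% and 40.4% of the 6 keratins per kilobase of transcript in the 4 groups, and Krt18 held 46.9%, 46.2%, 46.6% and 45.0%. The ratio of Krt8 to Krt18 was 0.84 ± 0.0186 (SD, n = 4) in WT control, 0.879 ± 0.0156 in WT palmitate, 0.88 ± 0.0108 in KO control and 0.898 ± 0.0221 in KO palmitate. Per kilobase of coding sequence it was 0.988, 1.03, 1.04 and 1.06. In WT control Krt18 thus had the higher mean by both lengths, while in the other groups which of the pair was higher depends on the length used. With the lengths held fixed, the ratio stayed within 0.827 to 0.918 over all 16 libraries while Krt8 changed by 1.54-fold and Krt18 by 1.47-fold between the control groups.

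The ductal keratins changed their proportion to this pair. Krt7 per Krt8 was 0.14 ± 0.0014 (SD, n = 4) in WT control, 0.121 ± 0.0026 in WT palmitate, 0.116 ± 0.0021 in KO control and 0.105 ± 0.0016 in KO palmitate. Krt19 per Krt18 was 0.162 ± 0.0093, 0.168 ± 0.006, 0.147 ± 0.0011 and 0.213 ± 0.0204 in the same order. The Krt19 share of the 6 keratins was 6.85% ± 0.0732 (SD, n = 4) in KO control and 9.55% ± 0.742 in KO palmitate libraries, and 7.58% and 7.78% in the WT groups. The share of Krt7 depends on its length, since its longest transcript has 4094 bases and its coding sequence 1371; it was 5.54% in WT control per kilobase of transcript and 12.4% per kilobase of coding sequence. The ratio of type II to type I keratins was 0.817 ± 0.0134, 0.835 ± 0.0099, 0.845 ± 0.0123 and 0.805 ± 0.0096 in the 4 groups. These ratios describe the libraries and were not tested.

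**Figure D3:**
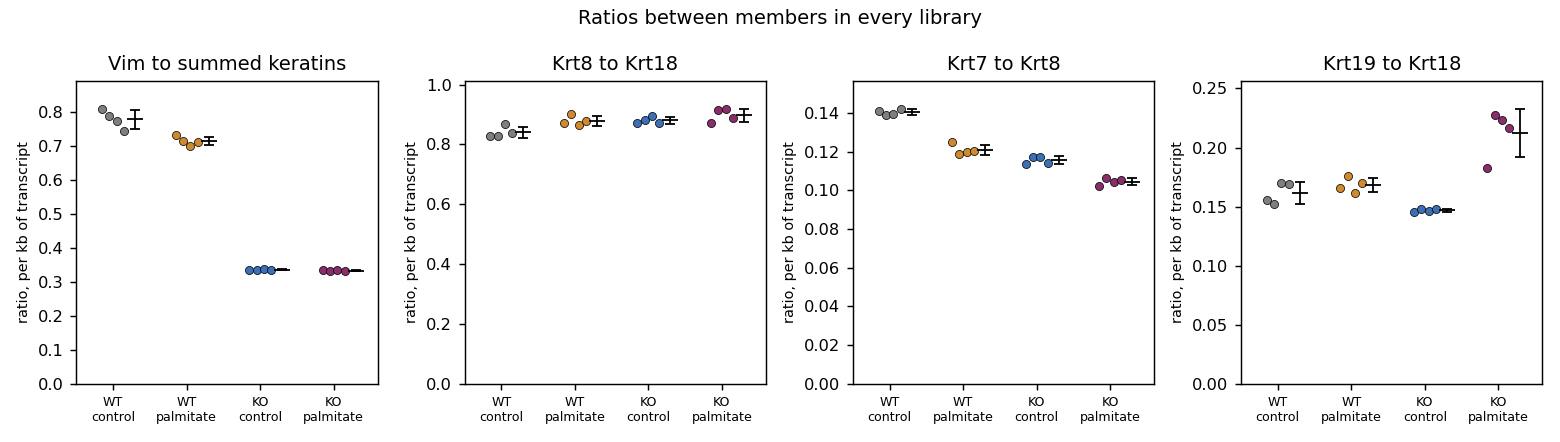
Ratios between genes (vertical axes from 0, per kilobase of transcript) in each of the 16 libraries, with mean ± SD (n = 4) beside the points. Vim to the 6 summed keratins is 0.701 to 0.81 in WT and 0.331 to 0.338 in KO libraries, Krt8 to Krt18 stays between 0.827 and 0.918, and Krt19 to Krt18 is highest in KO palmitate libraries.

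The other keratins contributed little. Of 50 keratin symbols in the table, 44 are not in the set, 15 of these had no read in any library and 4 passed the filter. The member keratins held at least 96.3% of all keratin reads in each WT control library and at least 99.3% in each KO control library. The rest was mostly Krt80, a type II keratin, which moved with genotype in the direction of Vim and opposite to the 5 tested member keratins. Krt80 averaged 1794.1 ± 26.6 (SD, n = 4) normalized counts in WT control, 1259.4 ± 65.2 in WT palmitate, 378.1 ± 9.7 in KO control and 211.2 ± 23.5 in KO palmitate libraries. It was lower in KO control cells by 2.24 ± 0.06 on the log2 scale (limma, adjusted p = 9.79e-24), and palmitate lowered it by 0.51 ± 0.06 in WT (limma, adjusted p = 4.85e-08) and by 0.84 ± 0.06 in KO cells (limma, adjusted p = 2.53e-12). In control, 3 of the 4 tested other keratins were called and all 3 were lower in KO, beside 77.1% of all genes called and 39.3% lower: Krt80, Krt79 and Krt5, the basal keratin of stratified epithelia, which averaged 14.3 in WT and 7.6 in KO libraries. Krt5 lost its call under quantile normalization, and Krt10 (87.7 and 75 normalized counts) gained one under rescaling to the same total. After palmitate all 4 were lower in KO cells, beside 77.1% of all genes called and 39.0% lower. Krt10 lost that call under quantile normalization. The median log2 change of the 4 in control was -1.5 against -0.01 for all genes.

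Among 15 other intermediate filament genes, 7 were tested. In KO control cells 6 of these 7 fell and 1 rose (median -0.74), beside 39.3% of all genes lower and 37.8% higher. Nes, which encodes nestin, averaged 2992.3 ± 137 (SD, n = 4) in WT control and 1198.9 ± 48.6 in KO control libraries and was lower by 1.32 ± 0.04 on the log2 scale (limma, adjusted p = 2.95e-21). Des, which encodes desmin, a filament of stellate and muscle cells, was near the filter at 12.3 and 2.6 normalized counts, and its KO level was lower by 1.94 ± 0.4 on the log2 scale (limma, adjusted p = 7.01e-05). Prph, which encodes the neuronal filament peripherin, rose by 1.17 ± 0.42 (limma, adjusted p = 0.013) from 5.7 ± 3.26 to 14.4 ± 9.53 (SD, n = 4). Its WT control libraries (2.16 to 8.54) and KO control libraries (7.6 to 27.95) overlapped and lay near the filter. After palmitate none of the 7 was called higher in KO than in WT cells. The nuclear lamins Lmna, Lmnb1 and Lmnb2 were all lower in KO control cells, by 0.47 ± 0.025, 0.87 ± 0.043 and 0.74 ± 0.039 on the log2 scale. Palmitate gave 3 lower and 1 higher of the 7 in WT cells, beside 19.9% of all genes lower and 17.7% higher. In KO cells it gave 3 lower, beside 20.4% of all genes lower and 18.7% higher. In both genotypes the others were not called, Lmna among them. The 1 higher was Synm, which encodes synemin (0.56 ± 0.21; limma, adjusted p = 0.036), a call lost under quantile normalization. Palmitate lowered Nes in WT by 0.40 ± 0.04 (limma, adjusted p = 2.6e-08) and in KO cells by 0.62 ± 0.04 (limma, adjusted p = 3.05e-12), Lmnb1 by 0.42 ± 0.04 and 0.47 ± 0.04, and Lmnb2 by 0.19 ± 0.039 and 0.17 ± 0.04, the same direction as Vim.

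All 15 genes of the list of desmosome components and filament linkers were tested, and in KO control cells 10 rose and 5 fell (median 0.48), beside 37.8% of all genes higher and 39.3% lower. Those that rose included Dsg2, the desmosomal cadherin of simple epithelia, at 3475.8 ± 157 (SD, n = 4) in WT control and 16394 ± 361 in KO control libraries (log2 change 2.24 ± 0.03; limma, adjusted p = 4.55e-28). Dsp, whose product desmoplakin ties keratin filaments to desmosomes, averaged 3478 ± 251 and 15042 ± 836 (2.11 ± 0.054; limma, adjusted p = 4.74e-16). Jup, which encodes plakoglobin, was higher by 0.89 ± 0.029 (limma, adjusted p = 3.18e-21). Pkp3 and Pkp1, plakophilins of low level here (45.4 and 72.3 normalized counts in WT control), changed by -2.18 ± 0.24 and -2.18 ± 0.22 on the log2 scale (limma, adjusted p = 4.11e-09 and 6e-10), and Plec, the linker plectin, changed by -0.51 ± 0.041 (limma, adjusted p = 1.42e-10). After palmitate the KO to WT comparison gave 8 higher and 6 lower, beside 38.1% and 39.0% of all genes. Ppl, the linker periplakin, was 0.17 ± 0.046 higher in KO control and 0.14 ± 0.046 lower in KO palmitate cells on the log2 scale, and its control call was lost under rescaling to the same total and under quantile normalization. Palmitate itself gave 5 higher and 1 lower of the 15 in WT cells, beside 37.6% of all genes called, and 2 of each in KO cells, beside 39.1%. The 1 lower in WT was Dsg2 (-0.09), whose call was lost under rescaling to the same total and under quantile normalization, and Dsp was higher in both genotypes, by 0.30 ± 0.05 (limma, adjusted p = 0.000358) and 0.20 ± 0.05 (limma, adjusted p = 0.00786).

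**Figure D4:**
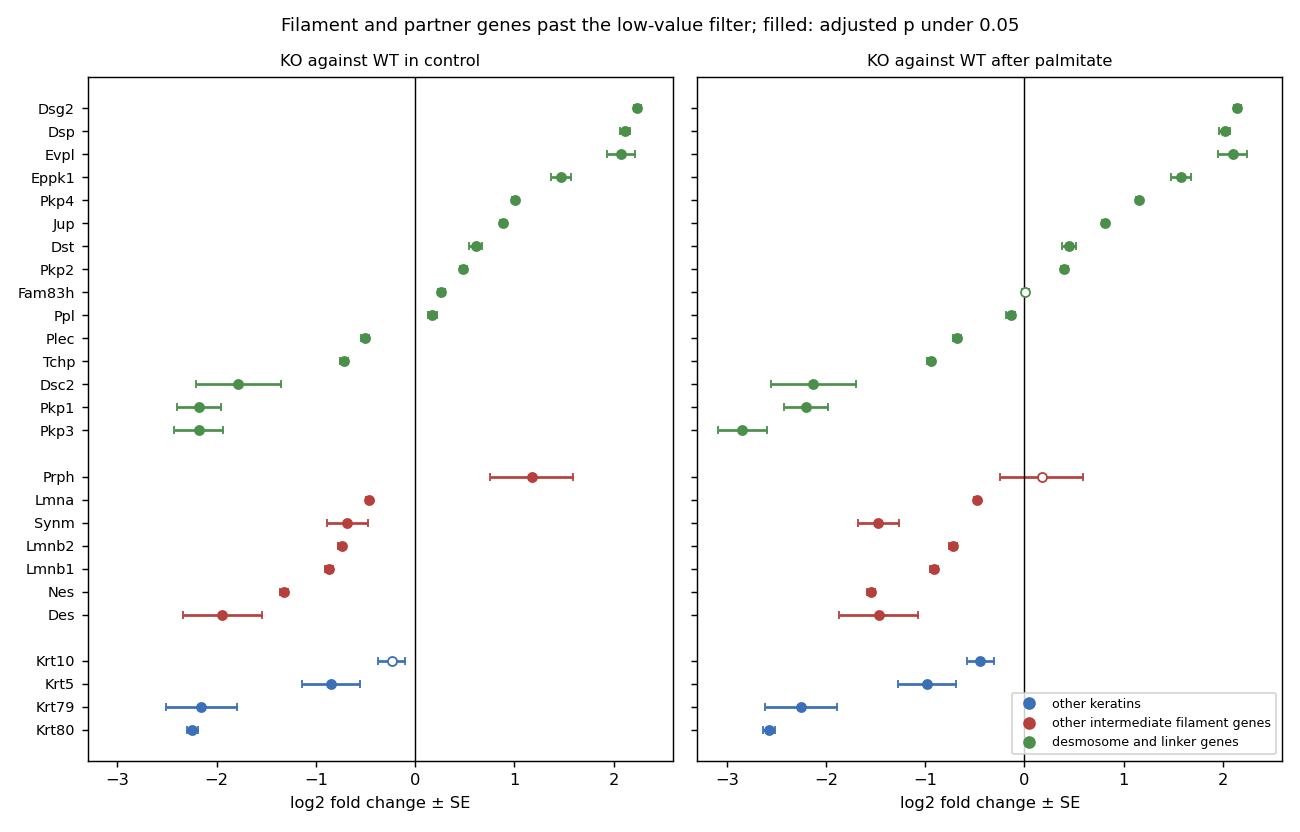
log2 fold change (horizontal axes, ± SE) of KO against WT in control (left) and after palmitate (right) for the 26 genes of 3 lists that passed the low-value filter: other keratins in blue, other intermediate filament genes in red, desmosome and linker genes in green; filled points had a limma adjusted p under 0.05. Dsg2, Dsp and Evpl lie highest, near 2.1 to 2.2 in control, and Krt80 lies at -2.24 in control; the call of Ppl in control was lost under 2 of 3 other scalings.

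Of 11 transcription factors that act on the epithelial to mesenchymal balance, 7 were tested, and in KO control cells 5 fell and 1 rose (median -1.35), beside 39.3% of all genes lower and 37.8% higher. Among the 5, Snai1 and Twist1 passed the low-value filter through the WT libraries, where they were high, so they could enter this count only as lower. The 1 that rose was Grhl1, from 19.1 to 35.2 normalized counts. Zeb1 was not called (-0.01, limma, adjusted p = 0.828), although it was called lower when libraries were rescaled to the same total (-0.09, limma, adjusted p = 0.0299). Snai1 and Snai2 encode the SNAIL factors whose E-box letters were searched above. Whether these factors act on the keratin genes in these cells was not tested. Snai1 averaged 175.6 ± 10.5 (SD, n = 4) in WT control and 7.6 ± 3.49 in KO control libraries (log2 change -4.48 ± 0.24; limma, adjusted p = 2.25e-15), and Snai2 averaged 529.7 ± 46.3 and 132.6 ± 4.78 (-1.99 ± 0.07; limma, adjusted p = 1.01e-20). Twist1 averaged 123.6 ± 8.14 and 4.1 ± 2.42 (-4.72 ± 0.26; limma, adjusted p = 6.79e-16). Palmitate raised Snai2 in KO cells to 213.7 ± 15.9 (0.68 ± 0.07; limma, adjusted p = 4.8e-09) and the response exceeded that of WT cells by 0.51 ± 0.096 (limma, adjusted p = 0.000699). Snai1 averaged 8.17 ± 1.54 there, and its change of 0.20 ± 0.244 was not called (limma, adjusted p = 0.552).

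For each tested gene, the genes with the nearest profile over the 16 libraries were found by the root mean square difference of log2(value + 1) after centring. The nearest gene to Krt8 was Krt18, and the nearest to Krt18 was Krt8, at 0.043 log2 units (Pearson r = 0.987 across the 16 libraries). This r spans both genotypes and both treatments, which every gene shares, and is given as a description. Gcnt2 (0.046) and Tmem63b (0.049) followed for Krt8, and Spg7 (0.054) and Pgm3 (0.056) for Krt18. Krt7 lay nearest to Tprn (0.056), Map3k20 (0.057) and Wdr1 (0.062). Nearest to Krt19 were Serp1 (0.057), Bcl2l11 (0.064) and Ormdl2 (0.065). Krt20 was closest to Ide (0.063), Arhgef17 (0.068) and Hacd2 (0.068), and Vim to Exosc10 (0.04), Racgap1 (0.043) and Lancl2 (0.044). Among the 6 tested members, Krt8 and Krt18 alone had another member among their 3 nearest genes.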

How the data were processed

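RNA of 16 libraries was sequenced, 4 in each of 4 groups. Per the labels' protocols, RNA was isolated with a column kit, depleted of ribosomal RNA and sequenced as paired reads; the submitters' processing notes name STAR, RSEM, DESeq2 and limma without role or version,, with genome build and counting strand not given in the sources used here. The authors deposited 1 table of normalized counts (a signal scaled per library). In every library all values were whole multiples of 1 step within 0.1 read, so reads could be recovered.

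The main test was limma 3.58.1 (R 4.3.3, trend and robust moderation) on log2(value + 1), in the 15239 genes that reached a value of 10 in 4 or more libraries. All 16 libraries entered 1 fit with 4 group means, and Benjamini-Hochberg adjustment was done separately for each of the 5 comparisons. Krt23 and Ptpn1 were tested with exact two-sided permutation tests. edgeR 4.0.16 and DESeq2 1.42.0 on the recovered reads were alternatives; for KO against WT in control they called 11758 and 11476 genes, and limma 11744. Other alternatives were the pseudocount, the filter, the scaling, a replicate block, the samples fitted, and leaving out each library. The fit was checked on simulated data.

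The members and lists were chosen with earlier results of these data known. Named were all members, their 3 nearest profiles among genes with a mean of at least 50, and up to 3 called genes with the largest change per list and comparison. Krt10, the lamins, Dsp, Evpl, Jup, Plec, Ppl, Spp1, Msln, Grhl1 and Zeb1 were named in KO against WT outside that rule, after their values were seen. Coordinates and lengths came from GENCODE vM21 by gene ID (54673 of 55421 IDs matched with their version, 55240 without it), and sequences from RefSeq. Protein sequences were not used here, and some items are not reported here. Replicate numbers did not pair the libraries: same-numbered libraries had correlated deviations between -0.111 and 0.061. No column was left out. Tables and plots were made with Python 3.11.15, numpy 2.4.6, pandas 2.3.3 and matplotlib 3.10.9.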

Additional observations from a re-analysis of the deposited data

Results flagged for a closer look

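Of 50 groups of 4 libraries examined for 1 library standing apart, 2 passed Dixon's 95% critical value, and chance alone gives about 1 in 20. Krt23 was highest in replicate 4 of WT control, with a gap of 0.847 of the group's range, where the values rest on 1 or 2 reads. The ratio of type II to type I keratins was highest in replicate 3 of WT control, with a gap of 0.864 of the range.

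The palmitate response differed between the genotypes for 4 genes in limma's test of the difference (KO minus WT). It was -0.226 for Krt7, -0.297 for Krt8 and -0.26 for Krt18 on the log2 scale, and 0.208 for Krt19, the last with a call that most alternatives did not keep.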

How the results depend on the processing

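Of the 30 log2 fold changes of the 6 tested genes, 772 of 804 recomputed values kept their direction and their side of the threshold. The cause of the changes below was not tested. Krt7 in KO against WT after palmitate was 0.013 when libraries were rescaled to the same total and -0.048 under quantile normalization. The WT palmitate response was 0.069 and 0.07 for Krt8 and 0.004 and 0.067 for Krt18 in the same order. The KO palmitate response of Krt20 was -0.003 under quantile normalization and -0.007 to 0.039 on leaving out 1 library, negative without replicate 2 (-0.007) or 3 (-0.003) of KO control. The WT palmitate response of Krt19 was -0.003 to 0.037 on leaving out 1 library, negative without replicate 2 of WT control (-0.003). The difference of responses of Krt19 was 0.208 with no filter on low values (limma, adjusted p = 0.0544), 0.187 at the same total, 0.203 under quantile normalization, and 0.177 to 0.267 on leaving out 1 library. That of Vim was -0.139, -0.166 and, by DESeq2, -0.119, all called, and -0.149 to -0.087 on leaving out 1 library. The replicate block, although the numbers did not pair the libraries, gave 0.208 for Krt19 (limma, adjusted p = 0.0599) and -0.118 for Vim (limma, adjusted p = 0.0286) and changed no other member's call; it called 1820 genes for the difference, against 1508. No count of genes called moved by over 1.5 times under the alternatives run. Krt23, with at most 2 reads in a library, is limited by depth.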
